A study of Mus musculus with 8 samples.

Results

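Maf, Satb1, Sox6, Zeb2, Sp9 and Npas1 encode transcription factors of maturing interneurons, and the open chromatin of their 6 loci was compared between the medial ganglionic eminence (MGE) and 3 other regions of the mouse embryonic forebrain. The other regions were the lateral (LGE) and caudal (CGE) ganglionic eminences and the cortex (CTX). Chromatin accessibility had been profiled by single-nucleus ATAC-seq, in which a transposase inserts adapters into open DNA and nuclei are barcoded in droplets. There were 8 samples of WT genotype, 2 of each region, with brain as the tissue label. MGE, LGE and CGE samples and CTX replicate 1 were labelled E12.5 and CTX replicate 2 was labelled E14.5, so age and sample cannot be told apart within CTX. The labels do not say how many embryos made up a sample, and p-values measure the spread between these samples, which may be technical. An element is a merged region: peaks of the 8 samples were joined where they overlapped, and every region touching a gene's span or the 50 kb upstream of it, on GRCm38, was counted with that gene. This gave 231 elements among 292532 merged regions, of which 117 belonged to Sox6, 40 to Zeb2, 31 to Satb1, 22 to Npas1, 16 to Maf and 5 to Sp9. Elements are numbered along the chromosome within each gene (Sox6_60 is element 60 of Sox6).

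Interneurons of the cortex are born in the ganglionic eminences, and those of the MGE are specified by NKX2-1 and then by its target LHX6 before they migrate. Sox6 and Satb1 act downstream of Lhx6 in the positioning and differentiation of MGE-derived cells. Maf, a bZIP factor, has been linked to the choice between parvalbumin and somatostatin fates. Zeb2, a zinc finger repressor, directs MGE cells toward the cortex, in part by lowering Nkx2-1. Sp9, a zinc finger factor of the Sp family, is used in newborn neurons of the eminences, and Npas1, a bHLH-PAS factor, marks subsets of interneurons and of pallidal neurons. Open chromatin at a start site or an enhancer is a measure of regulatory access, and no transcript was measured here, so the name of the group could not be checked against expression.

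The central 300 bases of 6 elements that carry the differences described next are shown on GRCm38, 5′ to 3′. Sox6_60 and Sox6_51 were higher in MGE than in both other eminences, Sox6_55 and Sp9_4 held the highest called fold of their gene against CTX, Zeb2_6 that of its gene against LGE, and Sox6_17 was lower in MGE than in both other eminences. Capitals mark matches on either strand to any of 5 short motifs: TAATTA (homeodomain core), CAAGTG (NKX2 type), GGGCGG (Sp type), CACCTG (ZEB type) and ACAAAG (SOX type).
Sox6_60, chr7:115745646-115745945, plus strand: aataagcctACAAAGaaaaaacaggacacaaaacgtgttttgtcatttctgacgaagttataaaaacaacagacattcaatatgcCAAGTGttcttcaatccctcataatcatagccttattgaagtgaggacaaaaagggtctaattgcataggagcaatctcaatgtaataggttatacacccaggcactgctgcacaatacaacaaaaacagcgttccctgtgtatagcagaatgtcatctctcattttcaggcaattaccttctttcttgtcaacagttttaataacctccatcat
Sox6_51, chr7:115706330-115706629, plus strand: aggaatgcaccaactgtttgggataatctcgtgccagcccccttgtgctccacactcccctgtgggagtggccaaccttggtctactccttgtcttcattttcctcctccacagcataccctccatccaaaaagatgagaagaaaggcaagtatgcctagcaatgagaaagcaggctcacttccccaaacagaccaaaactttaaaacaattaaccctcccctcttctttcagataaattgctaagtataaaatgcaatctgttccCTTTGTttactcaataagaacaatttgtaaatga
Sox6_55, chr7:115730237-115730536, plus strand: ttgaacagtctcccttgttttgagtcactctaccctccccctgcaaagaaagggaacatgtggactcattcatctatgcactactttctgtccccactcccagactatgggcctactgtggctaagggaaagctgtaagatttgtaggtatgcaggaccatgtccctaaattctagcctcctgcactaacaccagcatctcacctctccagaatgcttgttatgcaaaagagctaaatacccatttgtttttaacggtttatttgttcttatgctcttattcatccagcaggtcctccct
Sox6_17, chr7:115535844-115536143, plus strand: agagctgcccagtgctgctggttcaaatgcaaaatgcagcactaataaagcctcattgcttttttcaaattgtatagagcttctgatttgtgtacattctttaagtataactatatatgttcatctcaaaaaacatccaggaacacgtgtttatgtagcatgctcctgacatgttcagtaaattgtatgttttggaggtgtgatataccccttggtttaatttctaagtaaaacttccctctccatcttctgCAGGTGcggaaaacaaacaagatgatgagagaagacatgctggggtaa
Sp9_4, chr2:73269013-73269312, plus strand: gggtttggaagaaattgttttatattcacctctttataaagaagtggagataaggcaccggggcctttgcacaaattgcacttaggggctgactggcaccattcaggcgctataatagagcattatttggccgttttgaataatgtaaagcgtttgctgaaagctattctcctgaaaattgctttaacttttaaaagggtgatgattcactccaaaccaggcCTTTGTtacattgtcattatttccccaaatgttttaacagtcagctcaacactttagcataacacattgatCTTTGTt
Zeb2_6, chr2:45001667-45001966, plus strand: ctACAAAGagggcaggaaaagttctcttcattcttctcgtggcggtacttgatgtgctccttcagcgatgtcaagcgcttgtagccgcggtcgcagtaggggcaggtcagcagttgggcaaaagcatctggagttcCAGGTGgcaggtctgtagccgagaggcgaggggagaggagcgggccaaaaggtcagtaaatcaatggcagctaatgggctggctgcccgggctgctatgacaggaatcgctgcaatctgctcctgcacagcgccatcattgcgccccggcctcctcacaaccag
The ACAAAG letters lay in the centres of Sox6_60, Sox6_51, Sp9_4 and Zeb2_6, CAAGTG in that of Sox6_60, CACCTG in those of Sox6_17 and Zeb2_6, and none of the 5 in that of Sox6_55. These are letter matches and not sites shown to be bound. The stretch of Sp9_4 lies upstream of the gene's span, and that of Zeb2_6 within the gene.

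The samples held 3465 to 6845 nuclei and between 77387940 and 138873845 counts in peaks. Levels are given in counts per 1000000 (CPM), relative to a sample's total in the 68274 regions that had a peak in all 8 samples, which held 77.8% to 95.1% of the counts in peaks. Of 12 genes listed as regional landmarks, 8 had their highest mean in the labelled region, including Nkx2-1, Lhx6 and Lhx8 in MGE. Every gene listed for LGE had it elsewhere: Ebf1 in CGE, Foxp1 in CTX and Six3 in MGE. Prox1, listed for CGE, had it in MGE. No landmark was thus highest in LGE. Regions near 10 neuronal genes summed to 1294 to 1428 CPM in MGE, 1076 to 1087 in LGE, 1081 to 1141 in CGE and 681 to 705 in CTX. Those near 10 progenitor genes summed to 1977 to 2364, 2053 to 2199, 1855 to 1908 and 1670 to 2078 CPM in the same order, and those near 6 glutamatergic genes to 374 to 775 CPM in CTX against 246 to 329 in the eminences. Endothelial, microglial and mural or mesenchymal sums stayed between 79.0 and 164 CPM in all samples. The erythroid value, between 27.0 and 40.2, rested on 1 region, so it says little about the 5 genes of that list. Tie1, Trem2, Gata1, Hbb-bs, Hba-a1 and Alas2 were at 0 in at least 1 sample. The 2 CTX samples stood apart from each other, with an SD of the log2 ratio within the pair of 1.26 against 0.47 to 0.73 in the eminences. Any pair of libraries shared 15 to 56 barcodes. Entries with an odd count, which arise when only 1 end of a fragment falls in a peak, made up 9.54% to 10.4% of the matrix in samples numbered 1 but 5.17% to 5.85% in those numbered 2, so the 2 sets differ in this and each holds 1 sample per region.

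Differences were tested for elements with a peak in all 8 samples, 69 of the 231: 33 of Sox6, 19 of Zeb2, 7 of Npas1, 5 of Satb1, 3 of Maf and 2 of Sp9. Sox6 and Sp9 elements made up most of those called (edgeR adjusted p of 0.05 or less over all 68274 regions), and Maf and Npas1 had none over all nuclei. As 9.40% to 11.8% of all regions were called per comparison, few calls could come from 3 Maf and 7 Npas1 elements. Sox6 supplied 33 of the 69 and Sp9 only 2, so no contrast between genes is read from this. Against LGE 10 of the 69 were called (14.49%, where 10.6% of all regions were), 7 higher in MGE (background 4.86%) and 3 lower (background 5.79%). Against CGE 10 were called (14.49%, background 9.40%), 5 higher (background 3.56%) and 5 lower (background 5.84%). Against CTX 10 were called (14.49%, background 11.8%), 8 higher (background 4.90%) and 2 lower (background 6.87%). The median log2 fold over the 69 elements was 0.02 against LGE, 0.01 against CGE and 0.01 against CTX, beside -0.01, -0.0017 and -0.03 over all regions. In all, 18 elements were called in at least 1 comparison: 14 of Sox6, 2 of Sp9, 1 of Satb1 and 1 of Zeb2. The 3 comparisons share the MGE samples, so a call in several of them is not independent evidence. A lower level in a sample may stand for fewer nuclei with an open element or for less access per nucleus, and which of these applied was not tested.

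Peaks were called by the authors in each sample separately, so an element can gain counts when more of its length was called as peak. The called length can itself depend on how open the element is, so an offset for it may also take out part of a difference. Which of these applied was not tested. With an offset for that length the number of calls was 5 against LGE (background 6.48%), 5 against CGE (background 5.09%) and 6 against CTX (background 6.88%). The 5 against LGE were Satb1_13, Sox6_17, Sox6_60 and 2 elements not called without the offset, Sox6_32 and Sox6_83, both lower in MGE. The split also moved: 1 of the 5 calls against LGE was then higher in MGE, 4 of 5 against CGE and 5 of 6 against CTX, while over all regions the share of calls higher in MGE went from 45.6% to 19.7% against LGE and from 37.9% to 57.4% against CGE, as the median of all folds shifted to -0.17 and 0.10. An offset for GC content took that share against CGE to 55.4%, with 8 of 10 member calls higher in MGE. With the length offset the median fold of the tested members was -0.19, 0.19 and 0.10 against LGE, CGE and CTX. With the GC offset it was 0.19, 0.19 and 0.14, beside 0.02, 0.08 and -0.06 over all regions. The members' median thus depended on the scaling. When the CTX samples shared the fit, 2 elements stayed called against LGE (Sox6_17 and Sox6_60; background 0.694%) and 0 against CGE (background 0.325%). With only the 4 MGE and CTX samples in the fit, 0 elements and 0 of all regions were called against CTX. A term for the replicate number, by which the odd-count shares differ, gave 9, 10 and 7 calls against LGE, CGE and CTX (10.9%, 9.45% and 11.2% of all regions), of which 1, 1 and 0 were of elements not called without it. For all 10 calls made without it in each comparison the log2 ratio within number 1 and that within number 2 had the sign of the fold. Being called on these same values favours such agreement, so it is no separate evidence. With single libraries left out, the members' counts did not always follow those of all regions. Without MGE replicate 2, 10 elements were called against LGE and 9 against CGE, while the share of all regions rose to 13.4% and 13.5%, and without LGE replicate 2 the count against LGE was still 10 while that share fell to 7.47%. The count against LGE was 6 without MGE replicate 1 (6.38% of all regions), 4 without LGE replicate 1 (4.97%) and 6 without CGE replicate 2 (8.38%). Against CGE it was 3 without MGE replicate 1 (5.32%), 1 when CGE replicate 1 was left out (3.07%) and 2 when CGE replicate 2 was (2.87%). Against CTX it was 2 without MGE replicate 1 (2.01%), 4 without MGE replicate 2 (5.38%), 6 without CGE replicate 1 (6.20%) or CGE replicate 2 (6.01%), 18 without CTX replicate 1 (23.8%) and 20 without CTX replicate 2, the E14.5 sample (26.3%).

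**Figure D1:**
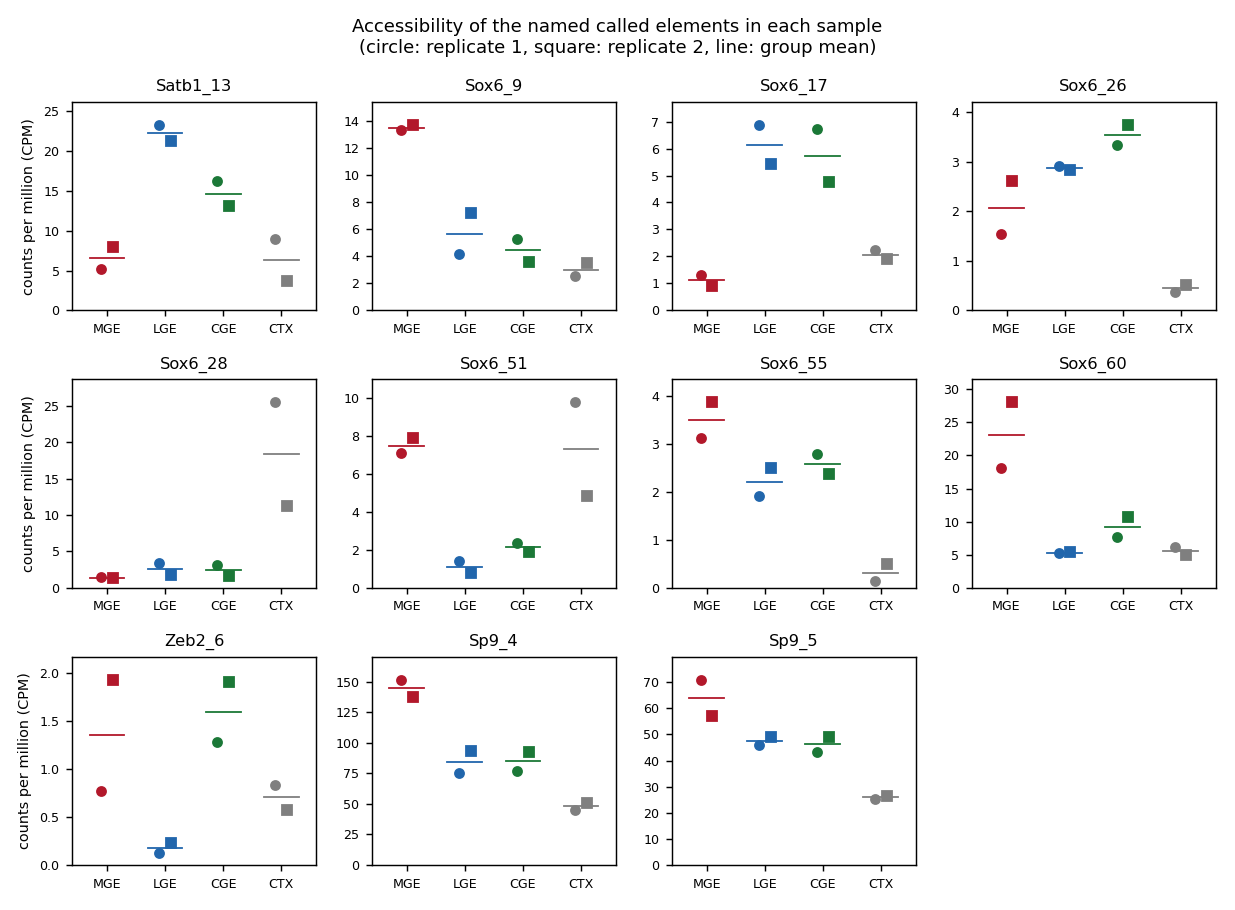
Accessibility of the 11 named elements that were called in at least 1 comparison, in CPM on a linear axis from 0, with circles for replicate 1, squares for replicate 2 and a line at the group mean. Both MGE samples lie above all others in Sox6_9, Sox6_55, Sox6_60, Sp9_4 and Sp9_5, and below all others in Sox6_17 and Sox6_28.

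Sox6 spans 568 kb on the minus strand of chromosome 7 (chr7:115470872-116038796) and encodes an SRY-box factor that acts downstream of Lhx6 in MGE-derived cells. Its intronic elements moved in both directions: 5 were called higher and 2 lower in MGE against LGE, 4 higher and 4 lower against CGE, and 6 higher and 2 lower against CTX. All 14 elements called over all nuclei lay in introns, and neither of the 2 tested start-site elements was among them. The called elements were spread from 134 to 537 kb downstream of the gene's 5′ end. The share called within Sox6 was 21.2% against LGE, 24.2% against CGE and 24.2% against CTX, where 10.6%, 9.40% and 11.8% of all regions were called.

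Sox6_60 (chr7:115745015-115746576, intron, 293 kb from the 5′ end) had 18.1 and 28.0 CPM in the 2 MGE samples. The other samples held 5.18 and 5.33 CPM in LGE, 7.63 and 10.7 in CGE and 6.15 and 4.92 in CTX. Both MGE samples lay above all 6 others. Its log2 fold was 2.15 ± 0.28 (SE, at an adjusted p of 0.00465 by edgeR) against LGE, 1.39 ± 0.28 (SE, at an adjusted p of 0.0209 by edgeR) against CGE and 2.04 ± 0.34 (SE, at an adjusted p of 0.0127 by edgeR) against CTX. Against LGE the log2 ratio of CPM, with 0.5 CPM added to each, was 1.71 for the replicate 1 samples and 2.29 for the replicate 2 samples. Peaks covered 1458 and 1562 bp of it in MGE and 654 and 931 bp in LGE, and per covered kilobase it had 12.4 and 17.9 CPM in MGE against 7.92 and 5.73 in LGE. With the length offset it remained called in each comparison, at 1.17 (edgeR adjusted p 0.00367), 0.98 (0.0172) and 1.77 (0.00778). Sox6_60 lost its call against CGE without MGE replicate 2 (at 1.07) or CGE replicate 1 (at 1.15) and against CTX without MGE replicate 2 (at 1.70). The call against CGE was also lost with all merged regions tested, at 1.39 (edgeR adjusted p 0.0911).

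Sox6_9 (chr7:115501163-115503017, intron, 537 kb from the 5′ end) had 13.3 and 13.7 CPM in MGE, 4.14 and 7.21 in LGE, 5.27 and 3.60 in CGE and 2.55 and 3.48 in CTX. MGE was again above every other sample. The log2 folds were 1.26 ± 0.31 (SE, at an adjusted p of 0.0408 by edgeR) against LGE, 1.69 ± 0.32 (SE, at an adjusted p of 0.0173 by edgeR) against CGE and 2.14 ± 0.40 (SE, at an adjusted p of 0.0179 by edgeR) against CTX. With the length offset the fold against LGE was 0.66 and no longer called (edgeR adjusted p 0.125), while those against CGE and CTX were. Sox6_9 lost its call against LGE without MGE replicate 1 (at 1.30), MGE replicate 2 (at 1.27), LGE replicate 1 (at 0.94) or CGE replicate 2 (at 1.26), against CGE without MGE replicate 1 (at 1.71), CGE replicate 1 (at 1.96) or CGE replicate 2 (at 1.48) and against CTX without MGE replicate 1 (at 2.15) or MGE replicate 2 (at 2.13). Its call against LGE also ended with a term for the replicate number, at 1.28 (edgeR adjusted p 0.0626). With all merged regions tested Sox6_9 lost the calls against LGE, at 1.25 (edgeR adjusted p 0.133), and CGE, at 1.68 (edgeR adjusted p 0.0853).

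Sox6_51 (chr7:115705392-115707568, intron) was called against both other eminences and not against CTX. It held 7.08 and 7.90 CPM in MGE, 1.41 and 0.789 in LGE, 2.37 and 1.88 in CGE and 9.77 and 4.85 in CTX, so that MGE was above both other eminences and between the CTX samples. Its log2 fold was 2.78 ± 0.33 (SE, at an adjusted p of 0.00345 by edgeR) against LGE and 1.89 ± 0.32 (SE, at an adjusted p of 0.0114 by edgeR) against CGE, and 0.02 ± 0.42 (SE, at an adjusted p of 0.985 by edgeR) against CTX. The length called as peak differed too, with 1868 and 1674 bp in MGE but 313 and 352 bp in LGE. With the offset the fold against LGE was 0.35 and not called (edgeR adjusted p 0.674). That against CGE was 1.21 and still called (edgeR adjusted p 0.0278). Sox6_51 lost its call against CGE without CGE replicate 1 (at 2.05) or CGE replicate 2 (at 1.79). That call was lost as well with all merged regions tested, at 1.89 (edgeR adjusted p 0.0636).

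Other intronic elements of Sox6 were called higher in MGE in part of the comparisons. Sox6_33 was called against LGE, at 1.12 ± 0.24 (SE, at an adjusted p of 0.0248 by edgeR), and against CTX, at 1.196 ± 0.30 (SE, at an adjusted p of 0.0469 by edgeR), and Sox6_41 against LGE, at 0.69 ± 0.18 (SE, at an adjusted p of 0.0456 by edgeR). Sox6_81 was called against CGE, at 1.28 ± 0.29 (SE, at an adjusted p of 0.0318 by edgeR), and against CTX, at 1.37 ± 0.35 (SE, at an adjusted p of 0.0492 by edgeR). These 3 elements, with Sox6_48, Sox6_49, Sox6_86 and Sox6_90, fall outside the rule for naming elements and were added after their values were seen. None of the 3 was called with the length offset, and each call was lost without at least 1 of MGE replicate 1, MGE replicate 2 and LGE replicate 1, at folds of 0.64 to 1.42. With all merged regions tested their calls were lost as well. The call of Sox6_33 against CTX was lost whichever eminence library was left out. That of Sox6_41 against LGE was kept only without MGE replicate 2. Sox6_81 also lost its call against CGE without LGE replicate 2, CGE replicate 1 or CGE replicate 2. A term for the replicate number ended the call of Sox6_41 against LGE, at 0.69 (edgeR adjusted p 0.0522), and those against CTX of Sox6_33, at 1.17 (edgeR adjusted p 0.0583), and Sox6_81, at 1.38 (edgeR adjusted p 0.0527).

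Sox6_17 (chr7:115535342-115536645, intron) ran the other way, with 1.33 and 0.916 CPM in MGE, 6.86 and 5.43 in LGE, 6.71 and 4.74 in CGE and 2.23 and 1.90 in CTX. Both MGE samples lay below every other sample. The log2 fold was -2.41 ± 0.31 (SE, at an adjusted p of 0.00416 by edgeR) against LGE and -2.25 ± 0.31 (SE, at an adjusted p of 0.00599 by edgeR) against CGE, and -0.89 ± 0.34 (SE, at an adjusted p of 0.141 by edgeR) against CTX. With the length offset it was -1.75 against LGE (edgeR adjusted p 0.00184) and -1.02 against CGE (0.0823), the latter not called. Sox6_90 was also lower in MGE than in both other eminences, at -0.80 ± 0.19 (SE, at an adjusted p of 0.0357 by edgeR) against LGE and -0.96 ± 0.19 (SE, at an adjusted p of 0.0206 by edgeR) against CGE. Sox6_48 and Sox6_86 were called lower against CGE, at -1.28 and -1.56 on the log2 scale. None of these 3 was called with the length offset, and each lost its call without MGE replicate 1, at folds of -0.69 to -1.41. Sox6_48 lost its call whichever eminence library was left out, at folds of -1.09 to -1.46. It also lost it with RLE scaling, at -1.25 (edgeR adjusted p 0.0565), and with promoters scaled separately, at -1.19 (edgeR adjusted p 0.0675). Over all merged regions its fold was -1.28 and not called (edgeR adjusted p 0.184). Testing all merged regions kept 12 of the element calls and ended 18. The GC offset also ended the calls of Sox6_48, at -0.85 (edgeR adjusted p 0.161), and Sox6_86, at -1.25 (edgeR adjusted p 0.0705). It ended both calls of Sox6_90, at -0.57 (edgeR adjusted p 0.147) against LGE and -0.60 (edgeR adjusted p 0.13) against CGE. Of the 10 calls lower in MGE over the 3 comparisons, 5 were lost with that offset. Sox6_86 lost its call as well with the term for the replicate number, at -1.57 (edgeR adjusted p 0.0639).

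Against CTX the largest folds of the locus lay in Sox6_28, Sox6_55 and Sox6_26, all intronic. Sox6_28 (chr7:115604536-115606003) had 25.5 and 11.2 CPM in CTX and 1.40 and 1.27 in MGE, with 3.41 and 1.75 in LGE and 3.13 and 1.61 in CGE. Both CTX samples stood above all eminence samples, and the log2 fold was -3.79 ± 0.56 (SE, at an adjusted p of 0.00944 by edgeR). Sox6_55 (chr7:115729983-115730791) had 3.13 and 3.86 CPM in MGE, 1.90 and 2.50 in LGE and 2.79 and 2.36 in CGE but 0.130 and 0.484 in CTX, a log2 fold of 3.50 ± 0.64 (SE, at an adjusted p of 0.0171 by edgeR) that rested on 14 and 38 counts in CTX. Sox6_26 (chr7:115581618-115582865) had 1.55 and 2.60 CPM in MGE and 0.370 and 0.522 in CTX, with a log2 fold of 2.19 ± 0.41 (SE, at an adjusted p of 0.0189 by edgeR). Its CGE samples, at 3.34 and 3.74 CPM, were higher than those of MGE. Sox6_28 and Sox6_55 were still called with the length offset, at -2.34 and 1.87, and Sox6_26 was not, at 0.83. Sox6_49, at -1.79 ± 0.46 (SE, at an adjusted p of 0.049 by edgeR), was the other element called lower in MGE than in CTX. Sox6_28 lost its call against CTX without MGE replicate 1 (at -3.87) or MGE replicate 2 (at -3.72). Sox6_55 lost its call against CTX without MGE replicate 1 (at 3.63) or MGE replicate 2 (at 3.34). Sox6_26 lost its call against CTX without MGE replicate 2 (at 1.78), CGE replicate 1 (at 2.16) or CGE replicate 2 (at 2.19). Testing all merged regions ended the calls of Sox6_55, at 3.52 (edgeR adjusted p 0.0878), and Sox6_26, at 2.23 (edgeR adjusted p 0.122). It also ended that of Sox6_49, at -1.76 (edgeR adjusted p 0.269). Sox6_49 lost its call with the GC offset, at -1.61 (edgeR adjusted p 0.0887). It also lost it when any library other than CTX replicate 1 was left out, with folds between -2.17 and -1.26, and with the term for the replicate number, at -1.78 (edgeR adjusted p 0.0754).

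No start-site element of Sox6 was called over all nuclei. Sox6_113 (chr7:116029262-116041048), which holds 5 annotated Sox6 start sites and also one of the neighbouring gene 1110004F10Rik, had 156 and 132 CPM in MGE, 113 and 124 in LGE, 103 and 109 in CGE and 130.5 and 128 in CTX. The MGE samples were the 2 highest of the 8, and the log2 folds were 0.31 ± 0.16 (SE, at an adjusted p of 0.308 by edgeR), 0.52 ± 0.16 (SE, at an adjusted p of 0.0955 by edgeR) and 0.14 ± 0.15 (SE, at an adjusted p of 0.607 by edgeR) against LGE, CGE and CTX. Sox6_76 (chr7:115823031-115827520), with 1 internal start site, had 10.9 and 9.63 CPM in MGE and 27.5 and 6.62 in CTX, and its folds ran from -0.74 to 0.15. Of the other internal start sites, Sox6_27 had a peak in 7 samples and Sox6_39 in 5, at up to 2.53 and 3.13 CPM, and neither was tested.

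In all nuclei, Sp9 (chr2:73271925-73284706, plus strand) was the only member whose start-site element was called. Sp9_4 (chr2:73263123-73275203, 2 start sites) had 152 and 138 CPM in MGE, 75.3 and 93.0 in LGE, 77.2 and 92.7 in CGE and 44.9 and 50.9 in CTX. The order was MGE, then LGE and CGE with overlapping values, then CTX. The log2 folds were 0.80 ± 0.19 (SE, at an adjusted p of 0.0371 by edgeR) against LGE, 0.84 ± 0.19 (SE, at an adjusted p of 0.0348 by edgeR) against CGE and 1.57 ± 0.20 (SE, at an adjusted p of 0.00604 by edgeR) against CTX. Per covered kilobase it had 12.6 and 11.4 CPM in MGE, 7.91 and 8.38 in LGE, 6.92 and 7.87 in CGE and 4.92 and 5.70 in CTX. The offset for length gave folds of 0.58 (edgeR adjusted p 0.0506), 0.77 (0.0105) and 1.15 (0.00661). With the GC offset the adjusted p became 0.0603 against LGE and 0.052 against CGE, both above the limit, so the element was then not called. Sp9_4 lost its call against LGE without MGE replicate 1 (at 0.74), MGE replicate 2 (at 0.89) or LGE replicate 1 (at 0.67), against CGE without MGE replicate 1 (at 0.77), MGE replicate 2 (at 0.93), CGE replicate 1 (at 0.70) or CGE replicate 2 (at 1.04) and against CTX without MGE replicate 1 (at 1.49).

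Sp9_5 (chr2:73275810-73282395), which covers the gene's exons, had 71.0 and 57.1 CPM in MGE, 46.1 and 49.1 in LGE, 43.2 and 49.2 in CGE and 25.4 and 26.3 in CTX. Its log2 fold was 1.29 ± 0.18 (SE, at an adjusted p of 0.00768 by edgeR) against CTX, and 0.45 against LGE and 0.54 against CGE, neither called. Sp9_5 lost its call against CTX without MGE replicate 1 (at 1.11). The 3 remaining Sp9 elements lay upstream and were not tested, and Sp9_1 had a peak in all 6 eminence samples and in neither CTX sample. This pattern was found in 2 of the 231 elements, the other being Maf_7, and in 0.790% of all merged regions.

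Satb1 (chr17:51736187-51833290, minus strand), a chromatin organizer needed for the survival and maturation of somatostatin interneurons, had 1 called element, lower in MGE. Satb1_13 (chr17:51775020-51776034) overlaps an exon 57.8 kb from the 5′ end and had 5.17 and 7.91 CPM in MGE, 23.3 and 21.3 in LGE, 16.3 and 13.1 in CGE and 8.96 and 3.64 in CTX. MGE lay below both other eminences and overlapped CTX. The log2 fold was -1.76 ± 0.23 (SE, at an adjusted p of 0.0045 by edgeR) against LGE and -1.10 ± 0.23 (SE, at an adjusted p of 0.0236 by edgeR) against CGE, and with the length offset -1.52 (edgeR adjusted p 0.000137) and -0.86 (0.0218). The call against CGE was lost without MGE replicate 1 (-0.81), CGE replicate 1 (-0.95) or CGE replicate 2 (-1.196). This call was lost too with all merged regions tested, at -1.09 (edgeR adjusted p 0.0872). No Satb1 start-site element was called over all nuclei. Satb1_30 (3 start sites) had 34.0 and 29.5 CPM in MGE, 38.1 and 31.7 in LGE, 36.3 and 26.9 in CGE and 26.2 and 27.6 in CTX. Satb1_25, at an internal start site, had 49.9 and 50.5 CPM in MGE, and its log2 folds lay between -0.03 and 0.21, none called. Satb1_4, at a further internal start site, had a peak in 7 samples, at up to 3.01 CPM in CTX replicate 2, and was not tested.

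Zeb2 (chr2:44983632-45117395, minus strand) had 19 tested elements and 1 call. No start-site element was called: Zeb2_36 (chr2:45099376-45117802), an element 18.4 kb wide with 26 annotated start sites, had 138 and 143 CPM in MGE, 162 and 148 in LGE, 149 and 133 in CGE and 151 and 105 in CTX. Its log2 folds ran from -0.12 to 0.11, with SE up to 0.17. Zeb2_12, with 2 internal start sites, had 38.5 and 45.8 CPM in MGE and 37.3 and 21.7 in CTX, and folds of 0.22, 0.21 and 0.50 against LGE, CGE and CTX, none called. The called element, Zeb2_6 (chr2:45001470-45002164), overlaps an exon and held few counts: 102 and 135 in MGE, 14 and 17 in LGE, 102 and 150 in CGE and 90 and 45 in CTX. The LGE samples were lower than all others, and MGE overlapped CGE and CTX. Its log2 fold was 2.97 ± 0.69 (SE, at an adjusted p of 0.0332 by edgeR) against LGE, and 1.06 with the length offset (edgeR adjusted p 0.219). Zeb2_6 lost its call against LGE without MGE replicate 2 (at 2.21), LGE replicate 1 (at 2.58), CGE replicate 1 (at 3.02) or CGE replicate 2 (at 2.97). Zeb2_22, at another internal start site, had no peak in LGE replicate 1 and was not tested.

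Over all nuclei, Maf and Npas1 had no called element in any comparison. Maf_6 (chr8:115705416-115710044), which holds the 2 Maf start sites, had 58.1 and 51.6 CPM in MGE, 49.9 and 52.0 in LGE, 47.8 and 46.1 in CGE and 38.0 and 45.8 in CTX. MGE was above CGE and CTX and overlapped LGE, with log2 folds of 0.13 ± 0.15 (SE, at an adjusted p of 0.688 by edgeR), 0.30 ± 0.15 (SE, at an adjusted p of 0.283 by edgeR) and 0.37 ± 0.16 (SE, at an adjusted p of 0.189 by edgeR) against LGE, CGE and CTX. Maf_3, an intronic element in the annotation used here and the highest tested element of the locus outside start sites, had 3.66 to 5.75 CPM over the 8 samples, with folds between -0.23 and 0.01. The remaining tested Maf element, upstream of the gene, had the lowest folds of the locus. These were -1.51 against LGE, -1.71 against CGE and -2.82 against CTX, none called. At Npas1 (chr7:16455721-16477728, minus strand) the start-site element Npas1_6 had 7.15 and 4.14 CPM in MGE, 4.54 and 4.22 in LGE, 4.80 and 5.01 in CGE and 3.30 and 2.79 in CTX. The MGE samples differed from each other by more than MGE did from LGE or CGE. Npas1_5 (chr7:16471472-16474843), over exons of the gene, had 19.8 and 22.0 CPM in MGE, 14.4 and 13.5 in LGE, 16.6 and 18.2 in CGE and 8.07 and 15.8 in CTX. Both MGE samples were the highest of the 8, and the log2 folds were 0.60 ± 0.17 (SE, at an adjusted p of 0.065 by edgeR), 0.33 ± 0.17 (SE, at an adjusted p of 0.291 by edgeR) and 0.78 ± 0.33 (SE, at an adjusted p of 0.181 by edgeR). Of the 7 tested Npas1 elements, Npas1_10 and Npas1_13 lie within the neighbouring gene Arhgap35, so their counts may belong to either.

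**Figure D2:**
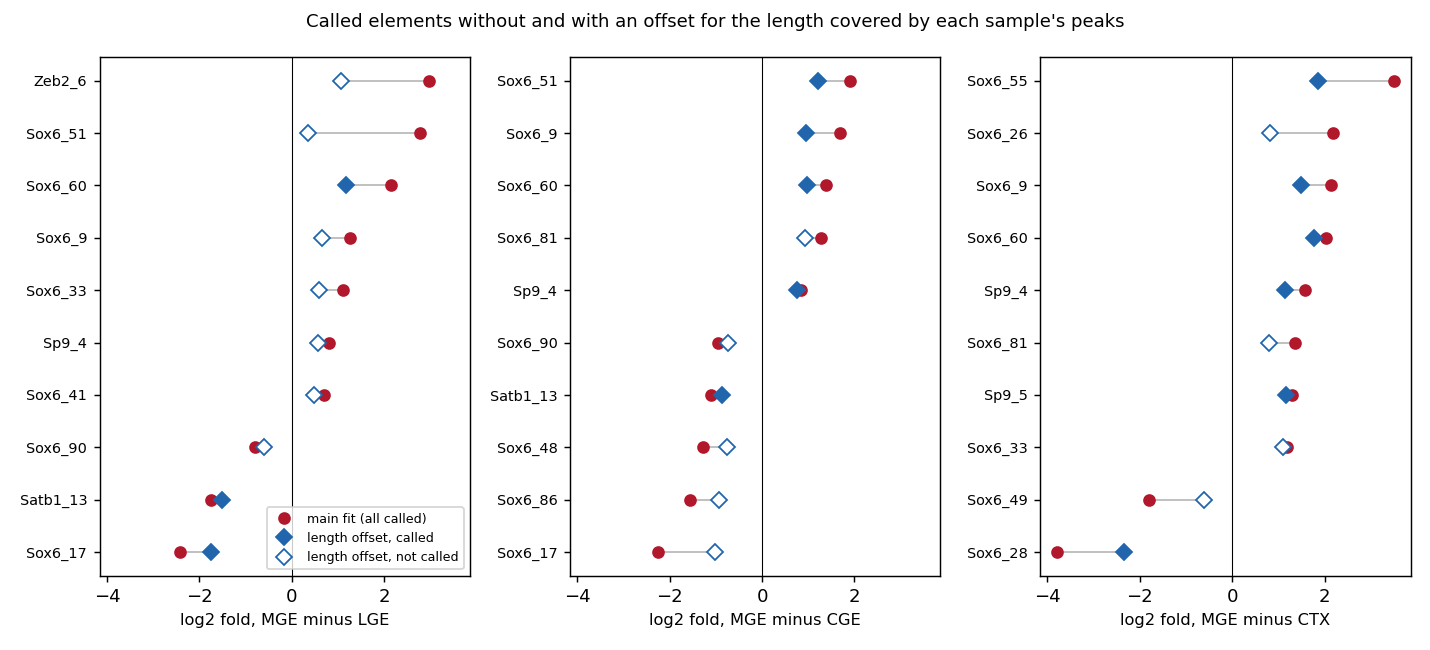
Log2 fold of each called element (MGE minus LGE, CGE or CTX, in 3 panels) in the main fit (circles) and with an offset for the length covered by each sample's peaks (diamonds, filled where the edgeR adjusted p stayed at 0.05 or less). Every offset fold keeps the sign of the main fold, and 3 of 10 remain filled against LGE, 5 of 10 against CGE and 6 of 10 against CTX.

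Summed over each locus, only Sp9 and Npas1 were called, and only against CTX. Locus counts were the sum over a sample's own peaks in the gene span and the 50 kb upstream, as CPM of all counts assigned to protein-coding loci. Against LGE 0 of 6 member loci were called (background 0.0679% of 19155 loci), against CGE 0 of 6 (background 0.125%) and against CTX 2 of 6 (background 4.35% of 19329 loci). At an unadjusted p under 0.05 there were 2, 1 and 3 member loci, and DESeq2, which called 3.84%, 3.61% and 12.1% of all loci, called Sp9 in each comparison and Npas1 against CTX. The Sp9 locus had 126 and 113 CPM in MGE, 74.9 and 84.8 in LGE, 74.4 and 81.6 in CGE and 40.4 and 44.4 in CTX. MGE was highest, LGE and CGE overlapped, and CTX was lowest. Its log2 fold was 1.48 ± 0.14 (SE, at an adjusted p of 0.00498 by edgeR) against CTX, 0.62 ± 0.13 (SE, at an adjusted p of 0.164 by edgeR) against LGE and 0.66 ± 0.13 (SE, at an adjusted p of 0.165 by edgeR) against CGE. The covered length was 19.5 and 19.6 kb in MGE and 15.7 and 15.1 kb in CTX, and per covered kilobase the locus had 6.47 and 5.74 CPM against 2.58 and 2.94. The fold against CTX was, with the length offset, 1.12 (edgeR adjusted p 0.0166). When only the MGE and CTX samples were fitted the call was lost, at 1.48 (edgeR adjusted p 0.0708).

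The Npas1 locus had 37.7 and 34.7 CPM in MGE, 30.8 and 29.0 in LGE, 35.8 and 37.2 in CGE and 21.8 and 25.1 in CTX. MGE and CGE overlapped at the top, LGE was lower and CTX lowest, with a log2 fold of 0.62 ± 0.14 (SE, at an adjusted p of 0.0472 by edgeR) for MGE against CTX. This call was lost with the length offset, at 0.39 (edgeR adjusted p 0.529), with only the MGE and CTX samples in the fit, at 0.61 (edgeR adjusted p 0.227), with a term for the replicate number, at 0.62 (edgeR adjusted p 0.0583), and when any library other than CTX replicate 2 was left out. The Npas1 sum takes in peaks within the neighbouring gene Arhgap35, so part of it may belong to that gene. With only 2 kb upstream counted, 1 member locus was called against CTX (2.95% of all loci). The Maf locus had 41.8 and 42.6 CPM in MGE, 35.8 and 36.7 in LGE, 38.6 and 35.2 in CGE and 33.6 and 31.8 in CTX, the MGE samples being the 2 highest, and no fold was called. The Satb1 locus had 59.0 and 72.3 CPM in MGE, below the 90.3 and 77.7 of LGE and 91.1 and 73.8 of CGE, while CTX ranged from 60.1 to 88.9. For Sox6, whose elements moved both ways, the locus sums were 252 and 276 CPM in MGE, 226 and 253 in LGE, 233 and 236 in CGE and 293 and 294 in CTX, with log2 folds of 0.18 ± 0.11 (SE, at an adjusted p of 0.64 by edgeR), 0.21 ± 0.11 (SE, at an adjusted p of 0.496 by edgeR) and -0.17 ± 0.13 (SE, at an adjusted p of 0.459 by edgeR). With the length offset the signs against LGE of Sox6 (-0.26), Maf (-0.16) and Npas1 (-0.13) turned, as did that of Satb1 against CGE (0.32) and CTX (0.13). The Zeb2 locus ran from 159 to 207 CPM, and its 4 regions overlapped.

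**Figure D3:**
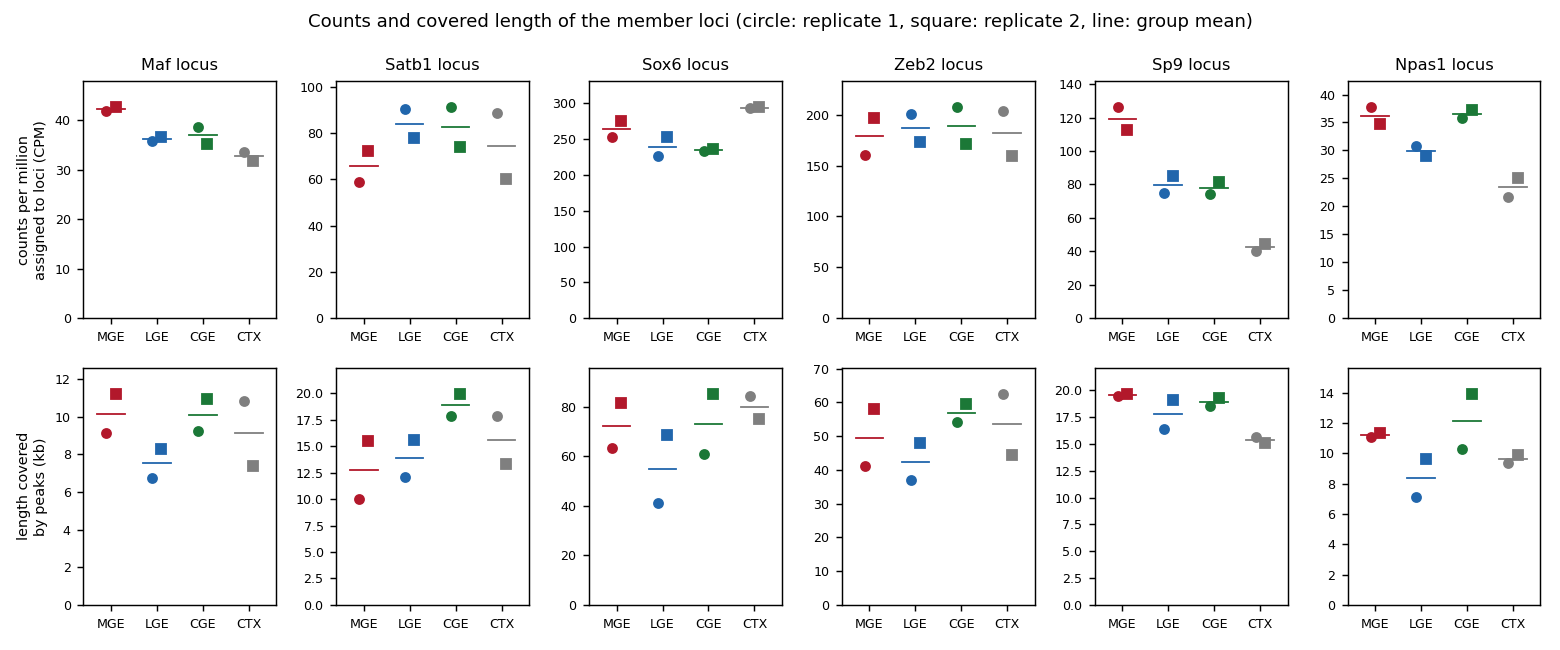
Locus counts in CPM (upper row) and the length covered by a sample's peaks in kb (lower row) for the 6 loci, on linear axes from 0, with circles for replicate 1, squares for replicate 2 and lines at group means. Sp9 falls from 113 to 126 CPM in MGE to 40.4 to 44.4 in CTX, and the Sox6 covered length varies between 41.3 and 85.1 kb.

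Among 24 other regulators of interneuron development, 2 loci were called against LGE, 3 against CGE and 10 against CTX, where 0.0679%, 0.125% and 4.35% of all loci were. Nkx2-1 and Lhx6 were called in each comparison: Nkx2-1 had a log2 fold of 3.38 ± 0.23 (SE, at an adjusted p of 0.00337 by edgeR) and Lhx6 one of 1.90 ± 0.13 (SE, at an adjusted p of 0.00337 by edgeR) against LGE. The peaks called at Nkx2-1 covered a mean of 24.9 kb in MGE and 7.10 kb in LGE. Per covered kilobase Nkx2-1 had 11.5 and 8.66 CPM in MGE against 4.01 and 3.05 in LGE. Lhx6 had 5.01 and 4.48 against 5.85 and 4.63. With the covered-length offset 0 of 18330 loci were called against LGE and 0 against CGE, so no regulator kept a call there, and 10 loci in all were called against CTX. The term for the replicate number gave 2 calls among all loci against LGE and 2 against CGE, so at most 2 of the 3 regulators called against CGE can be among them. Lhx8 was called against CGE, at 1.24 ± 0.14 (SE, at an adjusted p of 0.0311 by edgeR), and against CTX. The other calls against CTX were Dlx1, Dlx2, Dlx5, Dlx6, Gsx2 and Prox1, higher in MGE, and Tcf4, lower at -1.14 ± 0.25 (SE, at an adjusted p of 0.0467 by edgeR). The median log2 fold of the 24 was 0.32 against LGE, 0.23 against CGE and 0.38 against CTX, beside -0.0027, -0.0032 and -0.02 over all loci. Dlx1 and Dlx2, and likewise Dlx5 and Dlx6, are neighbours whose windows share peaks. By Pearson correlation of log2 CPM over the 8 samples, with 0.5 CPM added, the genes most like the Sp9 locus were Nktr, Wnt5a and Gad1, with r of 0.984, 0.980 and 0.980. For the other members they were Ccn1, Zdhhc19 and Slc51a (Maf, 0.967 to 0.977), Lurap1l, Arhgef26 and Tex21 (Satb1, 0.977 to 0.987), Dpy19l3, Pmch and Rps27rt (Sox6, 0.955 to 0.962), Rgs17, Disp1 and Prim2 (Zeb2, 0.964 to 0.982) and Trank1, Dnaja1 and Pnmal1 (Npas1, 0.977 to 0.980). These are the highest values among all loci, over samples that share region and depth, and they carry no test.

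Nuclei were placed on a score of counts near 10 neuronal over 10 progenitor genes, leaving out all member loci. Nuclei above the upper tertile were called neuron-leaning and those below the lower tertile progenitor-leaning, which are ranges of a score and not cell types: 6.31% of the 39253 nuclei lay within 0.1 of the upper cut and 5.47% within 0.1 of the lower one. On the log2 scale the upper cut lay at -0.09 and the lower one at -1.58. A nucleus with equal counts in both lists was thus neuron-leaning, and the name is only relative to the other nuclei. Neuron-leaning nuclei made up 40.8% and 53.0% of the MGE samples, 32.9% and 31.6% of LGE, 37.8% and 43.2% of CGE and 21.3% and 8.67% of CTX; nuclei were not thinned to 1 depth, so no order is read from these shares. Their median count per nucleus was 10679 to 15248.5, against 15411 to 23704.5 in progenitor-leaning nuclei. Each class was scaled to its own counts in the tested regions, and the log2 ratio of the 2 classes, with 0.5 CPM added to each, is given as a description with no test.

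Sox6_60 leaned furthest toward neuron-leaning nuclei among the named elements, with log2 ratios of 2.83 and 2.15 in MGE, 2.72 and 2.87 in LGE, 2.96 and 3.51 in CGE and 0.30 and 1.48 in CTX. In MGE its level was 30.9 and 44.3 CPM in neuron-leaning and 3.92 and 9.62 in progenitor-leaning nuclei. Sp9_4 and Sp9_5 also leaned that way in all 8 samples, with ratios of 0.21 to 1.09 and 0.27 to 1.46, and so did Npas1_5 (0.14 to 1.91), Npas1_6 (0.13 to 1.29) and Maf_3 (0.02 to 0.94). Satb1_13 leaned furthest the other way, at -3.13 to -1.44, followed by Sox6_17 (-3.10 to -0.01) and Zeb2_12 (-1.92 to -0.09), while Sox6_9, higher in MGE, also leaned to progenitors (-1.91 to -0.37). Thus elements higher in MGE were found on both sides of the score. Of the 69 tested elements 16 leaned to neurons in all 8 samples and 16 to progenitors (23.2% each), beside 21.9% and 15.4% of all tested regions. For Sox6 alone these numbers were 3 and 11 of 33.

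**Figure D4:**
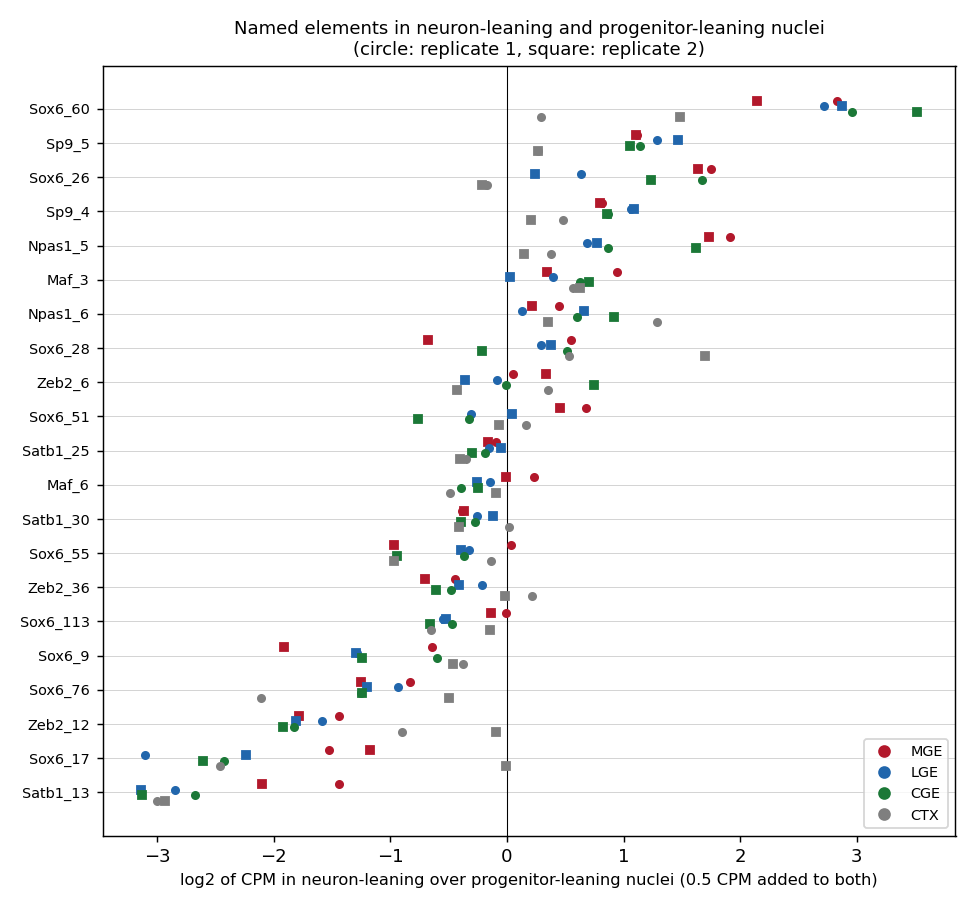
Log2 ratio of CPM in neuron-leaning over progenitor-leaning nuclei for the 21 named elements that were tested, ordered by median, with 1 point per sample coloured by region (circles for replicate 1, squares for replicate 2). Sox6_60 lies highest, at 0.30 to 3.51, and Satb1_13 lowest, at -3.13 to -1.44.

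The comparison among eminences was repeated on neuron-leaning nuclei alone. The share of members called was near that of all regions with the class as defined. When the class was taken as the nuclei above the median score, 6 of 69 elements were called against LGE (background 8.57%) and 9 against CGE (background 7.71%). With the class as defined the elements called were all higher in MGE, but the offset for covered length, which in all nuclei left 1 of 5 calls against LGE higher in MGE, was not run for this class. Against LGE 5 of 68 tested elements were called (7.35%, background 7.65%, of which 3.33% higher in MGE and 4.32% lower): Sox6_51, Sox6_60, Sox6_41, Zeb2_6 and Npas1_5. Against CGE 4 were called (5.88%, background 6.71%, of which 2.40% higher and 4.31% lower): Sox6_51, Sox6_60, Sox6_81 and the start-site element Sox6_113. Sox6_60 had a log2 fold of 1.63 ± 0.25 (SE, at an adjusted p of 0.00503 by edgeR) against LGE and 1.10 ± 0.24 (SE, at an adjusted p of 0.0282 by edgeR) against CGE. Sox6_51 had 3.16 ± 0.38 (SE, at an adjusted p of 0.00205 by edgeR) and 2.43 ± 0.36 (SE, at an adjusted p of 0.00622 by edgeR). Npas1_5 reached 0.90 ± 0.20 (SE, at an adjusted p of 0.0259 by edgeR) against LGE, Zeb2_6 4.41 ± 0.87 (SE, at an adjusted p of 0.015 by edgeR), and Sox6_113 0.74 ± 0.17 (SE, at an adjusted p of 0.0319 by edgeR) against CGE. Sp9_4, called in all nuclei, was at 0.56 ± 0.19 (SE, at an adjusted p of 0.128 by edgeR) against LGE and 0.75 ± 0.20 (SE, at an adjusted p of 0.0511 by edgeR) against CGE. Satb1_13 and Sox6_17, called lower in MGE in all nuclei, were at -0.75 ± 0.37 (SE, at an adjusted p of 0.29 by edgeR) and -1.07 ± 0.59 (SE, at an adjusted p of 0.358 by edgeR) against LGE. In this class Satb1_13 had 5.18 and 3.35 CPM in LGE, against 40.3 and 33.3 in progenitor-leaning nuclei. Whether the changes differed between the classes was not tested. The count against LGE was 3 without MGE replicate 1 (4.50% of all regions) and 2 without LGE replicate 1 (3.23%), and that against CGE was 2 without MGE replicate 1 (3.12%), 1 when CGE replicate 1 was left out (1.47%) and 0 when CGE replicate 2 was (1.52%).

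The remaining 162 elements lacked a peak in at least 1 sample and were not tested. A peak in a single sample was seen for 74 of the 231 (32.0%, against 36.3% of all merged regions). Peaks in both MGE samples and in no other sample were seen for Sox6_58, Sox6_65 and Npas1_15, 1.30% of the elements against 0.610% of all regions, and no further element was added when CTX was left aside (1.01% of all regions). Peaks in both CTX samples and in no eminence sample were seen for 4 elements, all of Sox6 (1.73% against 3.14% of all regions). At the outer edge of the windows, the last Zeb2 element inside had 19.4 to 41.6 CPM and the next region, 1213 bp outside, 0.863 to 35.8. For Sp9 the last element inside had at most 1.87 CPM, while the next region, 6860 bp outside, had a peak in all 8 samples and 19.97 to 32.0 CPM.

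Tested member elements had a median GC content of 43.1% against 48.6% over all tested regions, and a median width of 1888 bp against 1533 bp. The ACAAAG letters were in the central 300 bases of 25 of the 69 elements (36.2%) and of 25.0% of all 68274 regions. TAATTA was in 9 (13.0% against 9.79%), CAAGTG in 11 (15.9% against 16.4%), CACCTG in 14 (20.3% against 20.3%) and GGGCGG in 5 (7.25% against 17.9%). GC content and motif letters go together, so these shares are a description.

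Deposited counts per motif, summed over the nuclei of a sample, gave no call for the motifs of the members' families. Of 579 motifs, 44 carried a name of the MAF, SOX, ZEB or SNAI, SP or KLF, or NPAS, ARNT and CLOCK families, none bore the name SATB, and 0 of the 44 were called against LGE, CGE or CTX (background 0% in each). At an unadjusted p under 0.05 there were 1, 2 and 6 of them (25, 17 and 92 of all motifs), and DESeq2 called 0, 1 and 6 (0.864%, 1.21% and 11.7% of all motifs). Their log2 folds lay between -0.40 and 0.26 against LGE, -0.29 and 0.19 against CGE, and -0.30 and 0.31 against CTX. Motif counts do not show which factor of a family is bound.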

How the data were processed

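Single-nucleus ATAC-seq had been run on 8 mouse samples. Per the submitters' processing notes the tool was Cell Ranger ATAC 1.2.0 and the build GRCm38 (mm10); its options and its barcode filter are not given in the sources used here. For each sample the authors deposited raw counts of fragment ends per peak and nucleus, peak starts and ends, and raw counts per motif and nucleus. Peaks were called per sample, so those of the 8 samples were merged (overlap of at least 1 bp) and counts were summed over all deposited nuclei of a sample. No further filter on nuclei and no doublet caller was applied, so mixed nuclei may be present. Spans and start sites came from GENCODE M21 and bases from the GRCm38 genome; the RefSeq tables were used for no value here.

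Groups followed the titles. edgeR 4.0.16 (quasi-likelihood test, TMM scaling, filterByExpr, Benjamini-Hochberg adjustment, in R 4.3.3) was fitted on the 68274 regions with a peak in all 8 samples, on the loci of 21951 protein-coding genes and on 579 motifs. The 6 eminence samples entered the comparisons with LGE and CGE, and all 8 that with CTX. A call is an adjusted p of 0.05 or less, the fold is MGE minus the other group, and SE is the log2 fold divided by the square root of the test's F. Nuclei were scored by log2 of neuronal over progenitor list counts, each plus 1, outside the member loci. On simulated counts for MGE against LGE, the region test recovered 197 of 200 changed regions with 9 false calls, and the locus test 170 of 200 with 9. The simulation used a single fixed spread and large planted changes of a fixed size, with no effect of peak length, replicate number or age. These rates check that the test runs as intended and do not give its error rates on the real samples. The count totals limit precision through counting error only.

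The members, lists and tests were chosen with earlier results of these data known. Named elements were those holding a start site, at most 3 called elements with the largest folds per gene and comparison, and, for a gene without calls, its highest tested element outside start sites; others are marked in the text. Sequences were shown for at most 1 element per gene by this rule, and those of Sox6_60, Sox6_51 and Sox6_17 were added after values were seen. Alternatives covered the samples in the fit, DESeq2 1.42.0, scaling, filters, regions tested, covered length, GC content, fragments, window, the replicate block and each library left out.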

Additional observations from a re-analysis of the deposited data

How the results depend on the processing

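No log2 fold of a called element changed sign under the alternatives run, but 88 of 330 such values fell short of the threshold, as did 86 of 200 with 1 library left out. Against LGE, CGE and CTX in turn, the number of member elements called was 10, 10 and 10, and 2, 0 and 0 with other samples in the fit (0.694%, 0.325% and 0% of all regions), 5, 5 and 6 with the covered-length offset (6.48%, 5.09% and 6.88%), 5 of 137, 2 of 137 and 8 of 152 over all merged regions (3.92%, 2.46% and 4.25% of all) and 13, 15 and 16 of 69 by DESeq2 (16.7%, 15.7% and 22.1% of all). With RLE scaling, no filter, the GC offset, separate scaling of promoters or fragments it stayed between 8 and 12. With 1 library left out it ranged from 4 to 10, 1 to 10 and 2 to 20, as the share of all regions called ranged from 4.97% to 13.4%, 2.87% to 13.5% and 2.01% to 26.3%. In neuron-leaning nuclei the counts of 5 and 4 against LGE and CGE became 6 and 9 above the median score (8.57% and 7.71% of all regions), and 2 to 6 and 0 to 5 with 1 library left out (3.23% to 8.37% and 1.47% to 8.72%). The cause was not tested beyond what each alternative changes. Member loci called went from 0, 0 and 2 to 1, 1 and 2 by DESeq2, which called 3.84%, 3.61% and 12.1% of all loci (Sp9 at 0.63 against LGE and 0.67 against CGE); against CTX there were 0 with MGE and CTX alone (0.105% of all loci), 1 with the 2 kb window (2.95%), 1 with the covered-length offset (0.0546%), 1 with the replicate block (3.55%) and 1 to 2 with 1 library left out (0.279% to 12.1%), while against LGE and CGE the count stayed at 0. Member-family motifs called were 0 except by DESeq2, which called 1 against CGE and 6 against CTX (1.21% and 11.7% of all motifs).

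Signs of locus folds turned with the covered-length offset for Maf against LGE (-0.16), Satb1 against CGE (0.32) and CTX (0.13), Sox6 against LGE (-0.26), Zeb2 against CGE (0.18) and CTX (0.074) and Npas1 against LGE (-0.13), and with the 2 kb window for Npas1 against CGE (-0.025). With 1 library left out the folds crossed 0 for Satb1 against CTX (-0.47 to 0.13), Npas1 against CGE (-0.049 to 0.11) and Zeb2 against LGE (-0.16 to 0.10), CGE (-0.17 to 0.10) and CTX (-0.23 to 0.17). None of these locus folds was called.

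The replicate numbers were not treated as pairs in the main fit: no label ties them, and deviations of same-numbered samples correlated between -0.04 and 0.32 over the 6 pairs of regions, above 0.1 in 3 of them. The numbers nonetheless mark sets that differ in the share of odd counts. With the replicate block 9, 10 and 7 elements were called (10.9%, 9.45% and 11.2% of all regions), and 11, 13 and 10 with the block and the GC offset (14.54%, 13.2% and 12.4%). In neuron-leaning nuclei the block gave 6 and 6 (10.0% and 9.05%). The block ended the calls of Sox6_9 and Sox6_41 against LGE, Sox6_86 against CGE, and Sox6_33, Sox6_49, Sox6_81 and the Npas1 locus against CTX, at adjusted p of 0.0522 to 0.0754 by edgeR.

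With 2 samples a group there is little to estimate the spread from, the CTX samples differ in age, and peaks called per sample tie an element's count to its covered length. Nuclei of different cell types were pooled in the main comparison.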
